A study of Mus musculus with 6 samples.

Results

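The metabotropic glutamate receptor genes Grm2, Grm3, Grm4, Grm5, Grm6, Grm7 and Grm8 were chosen by their gene symbols and followed in RNA-seq libraries of mouse retina. Of these 7 genes, 6 had rows in the transcript tables, among 25202 genes that were above 0 in some library. The 6 genes had 18 Ensembl transcripts, and 12 of them were listed for all 6 libraries. Grm6 was not analysed here.

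Retinas came from wild type mice labelled as C57BL/6 and postnatal week 5, where the paper names C57BL/6J and an age of 4 weeks. All mice had received NMDA, an agonist of ionotropic glutamate receptors that damages retinal ganglion cells, by injection into the vitreous. In the NMDA + SCF group (3 libraries), stem cell factor (SCF), the ligand of the receptor tyrosine kinase c-kit, was injected 2 days after NMDA, and the NMDA + PBS group (3 libraries) received PBS in its place, as the paper's methods describe it. Retinas were collected a week later, and the comparison asked which transcripts differed in the NMDA-damaged retina after SCF. How many mice stand behind a library is not given in the sources used here, so p-values measure only the spread between these libraries, which may be technical.

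Metabotropic glutamate receptors are G protein-coupled receptors that answer glutamate more slowly than the ion channel receptors on which NMDA acts. Group I, with Grm5, couples to Gq and phospholipase C, whereas group II (Grm2 and Grm3) and group III (Grm4, Grm6, Grm7 and Grm8) couple to Gi/o and lower cyclic AMP or presynaptic calcium entry. In the retina, the Grm6 product mGluR6 on the dendrites of ON bipolar cells closes the channel Trpm1 through Go when photoreceptors release glutamate in the dark, while other group III receptors sit mainly at synaptic terminals.

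The values are FPKM, counted fragments divided by transcript length and by the size of the library, so levels can be compared between transcripts of different length. A gene value is a sum over transcripts, in which a fragment of a short transcript weighs more than a fragment of a long transcript. Levels of genes are compared with that limit. Sequencing left between 44925938 and 48783182 clean reads in a library. The size of the library was inferred from the steps in FPKM times transcript length. It was 3404336, 3977111 and 4440581 counted fragments in the NMDA + PBS libraries and 3426326, 3479957 and 3458475 in the NMDA + SCF libraries. Over both groups this was 14.1 to 18.2% of the clean pairs. The receptors therefore rest on few fragments, from 0 to 97 per gene and library in the transcripts that all tables share. Values of single libraries are given in the order of replicates 1, 2 and 3.

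The 2 groups were not quantified on the same transcripts. The 3 NMDA + SCF libraries and the first NMDA + PBS library share a transcript list, here list A, while NMDA + PBS replicates 2 and 3 share another, list B. The lists have 46933 Ensembl transcripts in common, and 7529 are particular to list A and 8966 to list B. On a principal component analysis of genes summed from shared transcripts, component 1 (53.3% of variance) split the lists, with scores of 68.6 and 94.9 for the list B libraries, -35.9 for the NMDA + PBS library of list A and -40.1, -42.3 and -45.2 for NMDA + SCF. As no NMDA + SCF library has list B, a limma fit with the list as a term rests on 1 control library, which is assumed to vary like the others. That fit, tested only after the values were seen, called 53 genes (0.21%) at a Benjamini-Hochberg adjusted p up to 0.05, each of them above 0 in NMDA + PBS replicate 1 alone. In it the receptors with a fold change had adjusted p-values of 0.858 to 0.966 (limma, Benjamini-Hochberg). The log2 fold change within list A is therefore given beside each receptor that has a fold change.

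Across all 25202 genes, limma called 0% at the study's thresholds (2-fold, Benjamini-Hochberg adjusted p up to 0.001) and 0% at an adjusted p up to 0.05, with 2324 genes at an unadjusted p up to 0.05. Without NMDA + PBS replicate 1, where list and group coincide, these counts were 191, 909 and 4332 genes, and without each other library 0 genes passed the study's thresholds, at most 1 an adjusted p of 0.05 (limma, Benjamini-Hochberg) and 1150 to 1981 the unadjusted p. By limma voom on recovered fragments, 2 genes passed an adjusted p of 0.05 and 2615 had an unadjusted p of at most 0.05. Among the 6 receptor genes none passed either adjusted threshold. With the unadjusted p, 0 receptor genes were lower in NMDA + SCF, against 4.9% of all genes, and 1 higher (Grm5, on at most 2 fragments per library), against 4.33% of all genes.

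Among the receptors, Grm7 was the most abundant in shared transcripts, with 12.9 ± 5.48 FPKM in NMDA + PBS and 9.07 ± 1.95 FPKM in NMDA + SCF (SD, n = 3). It stood above the next gene by more than the SDs in both groups. In NMDA + PBS, Grm4 (1.58 ± 1.26 FPKM), Grm2 (1.41 ± 0.449 FPKM) and Grm3 (1.37 ± 0.271 FPKM) followed, and neighbours in this order did not differ beyond their SDs. In NMDA + SCF, Grm2 came next (1.29 ± 0.423 FPKM), then Grm3 (0.539 ± 0.337 FPKM) and Grm4 (0.426 ± 0.225 FPKM), and the SDs of neighbours overlapped here too. Grm8 was lowest of these 5 genes, at 0.234 ± 0.0207 FPKM and 0.0852 ± 0.0309 FPKM. Grm5 could not be placed in this order, because its main coding transcript is in list B only.

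**Figure D1:**
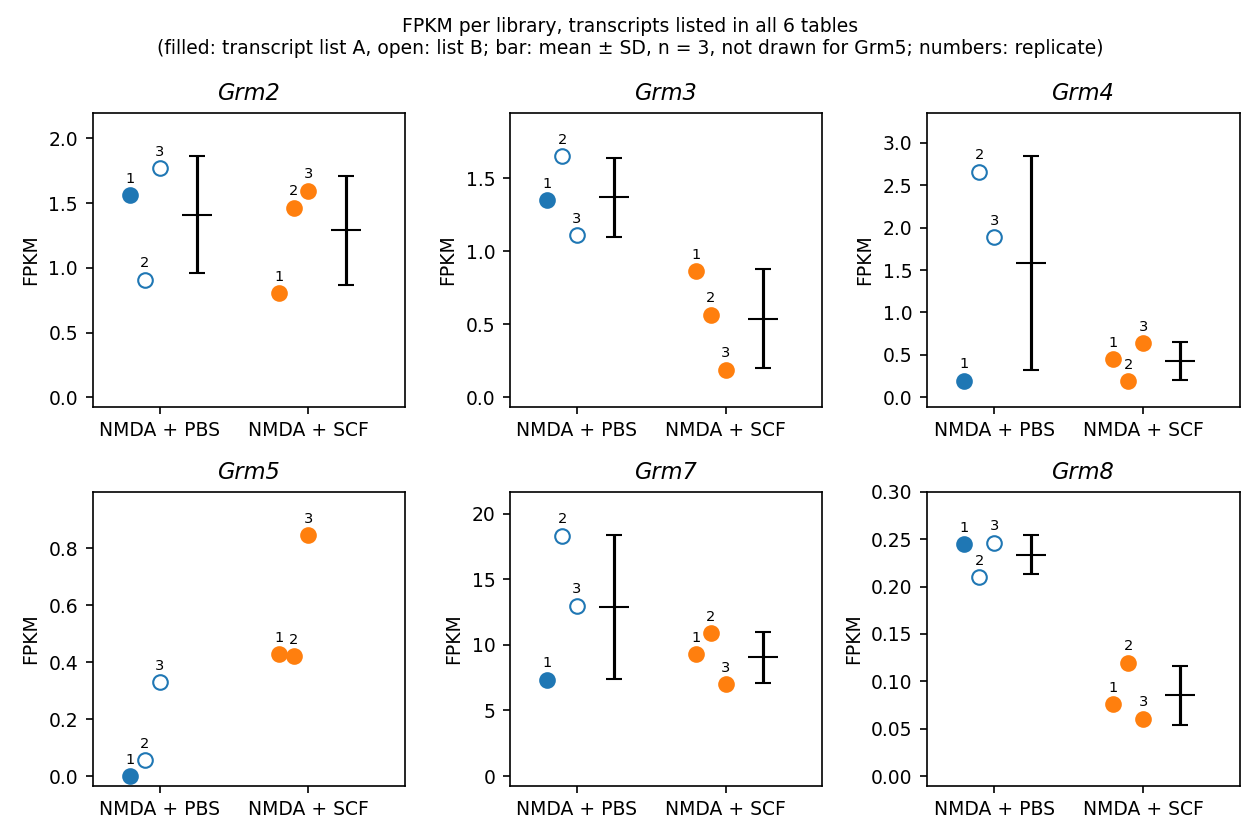
FPKM of 6 metabotropic glutamate receptor genes in each library (y axis, separate scale for each gene) for the 3 NMDA + PBS (blue) and 3 NMDA + SCF (orange) libraries, filled for transcript list A and open for list B, with mean ± SD except for Grm5. The groups separate for Grm3, Grm8 and, on 0 to 2 fragments per library, Grm5, while for Grm4 and Grm7 the open points, at 2.66 and 1.89 FPKM and at 18.3 and 13.0 FPKM, lie above all filled points.

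Grm2 encodes mGluR2, a group II receptor that in the retina is known from cholinergic (starburst) amacrine cells. It was at 1.56, 0.907 and 1.77 FPKM in NMDA + PBS and at 0.805, 1.46 and 1.60 FPKM in NMDA + SCF, from 13 to 37 fragments per library. Each group had 1 library near 0.9 FPKM or below and 2 libraries above 1.4 FPKM, so the groups overlapped. The log2 fold change (NMDA + SCF minus NMDA + PBS, on log2(FPKM + 1)) was -0.076 with an SE of 0.33 and an adjusted p of 0.949 (limma, Benjamini-Hochberg over all genes), and the two-sided exact permutation p was 0.6. Its sign turned without NMDA + PBS replicate 3 (0.033) or NMDA + SCF replicate 1 (0.086), within list A it was -0.18, and no direction is given for this gene. All fragments came from the coding transcript Grm2-201 (chr9:106643117-106656080, minus strand, GRCm38), while the noncoding Grm2-204 was listed at 0 in every library.

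Grm3 encodes mGluR3, the other group II receptor, which in the brain is found in astrocytes as well as neurons. In NMDA + PBS it was at 1.35, 1.65 and 1.11 FPKM (14, 20 and 15 fragments), and in NMDA + SCF at 0.862, 0.565 and 0.190 FPKM (9, 6 and 2 fragments). All 3 NMDA + SCF libraries were below all 3 NMDA + PBS libraries. The mean FPKM of NMDA + PBS was 2.54 times that of NMDA + SCF, and the log2 fold change was -0.64 with an SE of 0.29, which did not pass the threshold (adjusted p = 0.540, limma with Benjamini-Hochberg adjustment). The exact permutation p was 0.1, the smallest that 3 against 3 libraries allow. Within list A the log2 fold change was -0.63, against a control library with 1.35 FPKM. It was -1.35 with a pseudocount of 0.1 and -1.45 by limma voom on fragments. In a bulk sample, fewer cells of a type and less RNA per cell cannot be told apart.

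The depth limits what can be said of Grm3. Pooled over the libraries, 49 of 11822028 counted fragments in NMDA + PBS and 17 of 10364758 in NMDA + SCF were from Grm3-201, its single annotated transcript (chr5:9485541-9725170, minus strand, GRCm38), a ratio of 2.53 with a 95% interval of 1.43 to 4.68 (exact conditional, counting error only). That interval leaves out the spread between libraries. For single libraries the exact Poisson intervals of NMDA + PBS replicate 1 (0.737 to 2.26 FPKM) and NMDA + SCF replicate 1 (0.394 to 1.64 FPKM) overlapped, while that of NMDA + SCF replicate 3 (0.0230 to 0.685 FPKM) lay below the former.

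Among markers of other eye tissue, the lens sums also separated the groups, being higher in all NMDA + SCF libraries, while the cornea sums overlapped. For the lens list, 5 of 6 markers had a value, and their summed level was 20.2, 127 and 167 FPKM in NMDA + PBS and 3595, 370 and 6771 FPKM in NMDA + SCF. Crygs was the most abundant of them, Cryaa was at 0 in NMDA + PBS replicates 1 and 2, and Cryab was at 0 in NMDA + PBS replicates 2 and 3 and NMDA + SCF replicate 2. Grm3 was lowest in the library with the highest lens sum, NMDA + SCF replicate 3, and was also low in NMDA + SCF replicate 2, which had the lowest lens sum of its group. For the cornea list, both markers had a value, with sums of 11.7, 15.1 and 43.5 FPKM against 2.96, 5.37 and 11.98 FPKM, Krt5 being the more abundant and neither being at 0. The part of these tissues in the Grm3 values was not tested.

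Grm4 encodes mGluR4, a presynaptic group III receptor. It was at 0.194, 2.66 and 1.89 FPKM in NMDA + PBS (3, 49 and 39 fragments) and at 0.450, 0.190 and 0.637 FPKM in NMDA + SCF (7, 3 and 10 fragments). NMDA + PBS replicate 1 was as low as the NMDA + SCF libraries, and only the list B libraries were high. The log2 fold change was -0.72 with an SE of 0.45 and an adjusted p of 0.614 (limma, Benjamini-Hochberg), and the exact permutation p was 0.3. Within list A it turned to 0.24, and without NMDA + PBS replicate 1, which leaves only list B controls, it was -1.20 with an adjusted p of 0.121 (limma, Benjamini-Hochberg; range over the alternatives 0.121 to 0.957). Without NMDA + PBS replicate 2 it was -0.39, with a pseudocount of 0.1 it was -1.26, and by limma voom on fragments -1.45. Pooled, there were 91 fragments in NMDA + PBS, most of them from the list B libraries, and 20 in NMDA + SCF. The ratio per counted fragment was 3.99 with a 95% interval of 2.44 to 6.84 (exact conditional, counting error only), which leaves out the gap between NMDA + PBS replicate 1 and the other controls. Every fragment came from the coding transcript Grm4-201 (chr17:27425899-27513406, minus strand, GRCm38), which is in both lists. Its 2 noncoding transcripts, each in 1 of the lists, were at 0.

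Grm8 encodes mGluR8, a group III receptor with high affinity for glutamate. It was at 0.245, 0.210 and 0.246 FPKM in NMDA + PBS and at 0.0757, 0.120 and 0.0603 FPKM in NMDA + SCF. The groups did not overlap, and NMDA + SCF was lower, but these levels stand for 4, 4 and 5 fragments against 1, 2 and 1. Per counted fragment the ratio of NMDA + SCF to NMDA + PBS was 0.351 with a 95% interval of 0.0834 to 1.14 (exact conditional, counting error only), so a difference was not detectable at this depth. The log2 fold change was -0.19 with an SE of 0.10 and an adjusted p of 0.569 (limma, Benjamini-Hochberg), the exact permutation p was 0.1, and within list A the change was -0.20. The pseudocount of 1 FPKM exceeds these levels and compresses the change, which was -0.86 with a pseudocount of 0.1. Most fragments, 12 of 13 and 3 of 4, belonged to the noncoding transcript Grm8-206 (chr6:27934377-28135178, minus strand, GRCm38). The coding transcript Grm8-202 had 1 fragment in NMDA + PBS replicate 3, 1 in NMDA + SCF replicate 1 and none in the other libraries.

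Counted over the 6 receptor genes, 2 (Grm3 and Grm8) did not overlap between the groups and were lower in NMDA + SCF, where 6.45% of all genes did so. In the opposite direction there was 1 gene, Grm5, against 7.63% of all genes. Both list B libraries were above all 4 list A libraries for 2 receptor genes, Grm4 and Grm7, as for 14.4% of all genes, and below them for 0 receptor genes, against 10.9% of all genes. With 6 genes, no excess over these shares can be read from counts of 1 or 2.

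Grm5 encodes mGluR5, the group I receptor, which is linked to Homer and Shank scaffolds at postsynaptic sites. Its summed shared transcripts were at 0, 0.0559 and 0.330 FPKM in NMDA + PBS and at 0.427, 0.421 and 0.847 FPKM in NMDA + SCF. These levels look ordered by group but stand for 0, 1 and 1 fragments against 1, 1 and 2, so no fold change is given. All but 1 of the 6 fragments belonged to the noncoding Grm5-203, and the coding Grm5-204 had 1 fragment, in NMDA + PBS replicate 2. The long coding transcript Grm5-202 (8047 nucleotides, chr7:87584393-88134907, plus strand, GRCm38) is in list B only. There it was at 6.50 and 9.85 FPKM in NMDA + PBS replicates 2 and 3, from 208 and 352 fragments. With all listed transcripts summed, Grm5 in these 2 libraries (8.45 ± 2.56 FPKM, SD) ranked after Grm7 (15.7 ± 3.76 FPKM) and before Grm4 (2.27 ± 0.547 FPKM). The place of Grm7 rests on its short transcripts, as its full-length Grm7-202 was at 4.19 and 3.49 FPKM there (70 and 65 fragments), below Grm5-202. Its level in the libraries of list A, and so any effect of SCF on it, was not measured.

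Grm7 encodes mGluR7, a group III receptor of low glutamate affinity found in the active zone of presynaptic terminals, in the retina among others at ribbon synapses of bipolar cells. The gene was at 7.36, 18.3 and 13.0 FPKM in NMDA + PBS and at 9.29, 10.9 and 7.01 FPKM in NMDA + SCF. As with Grm4, NMDA + PBS replicate 1 lay among the NMDA + SCF libraries and the list B libraries above them. The log2 fold change of -0.40 with an SE of 0.34 did not pass the threshold (adjusted p = 0.688, limma with Benjamini-Hochberg adjustment), the exact permutation p was 0.3, and within list A the change turned to 0.25. It was -0.73 without NMDA + PBS replicate 1, -0.12 without NMDA + PBS replicate 2 and -0.25 without NMDA + SCF replicate 3.

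Counted in fragments, Grm7 did not show that order. There were 69, 97 and 92 fragments in NMDA + PBS and 67, 95 and 73 in NMDA + SCF, and the ratio of NMDA + PBS to NMDA + SCF per counted fragment was 0.963 with a 95% interval of 0.803 to 1.15 (exact conditional, counting error only). By limma voom on these fragments the log2 fold change was 0.046. The full-length coding transcript Grm7-202 (4197 nucleotides, chr6:110645582-111567230, plus strand, GRCm38) took between 70.7 and 94.5% of the fragments of a library, yet between 22.9 and 67.8% of its Grm7 FPKM. The rest of the FPKM came mainly from Grm7-203 (418 nucleotides) and Grm7-205 (386 nucleotides), short annotated fragments of the 3′ coding region where 1 fragment weighs about 10 times as much as in Grm7-202.

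None of the 4 Grm7 transcripts that all tables share separated the groups. Grm7-202 was at 4.41, 4.19 and 3.49 FPKM in NMDA + PBS and at 3.89, 5.89 and 4.75 FPKM in NMDA + SCF, overlapping values with a log2 fold change of 0.21 (adjusted p = 0.791 over 45261 transcripts, limma with Benjamini-Hochberg adjustment). Grm7-205 was at 0, 7.82 and 4.08 FPKM against 3.02, 0.744 and 1.50 FPKM, from 0, 12 and 7 against 4, 1 and 2 fragments. Grm7-203 was at 2.81, 6.02 and 4.85 FPKM against 2.09, 4.12 and 0.692 FPKM, from 4, 10 and 9 against 3, 6 and 1 fragments. The 2 short transcripts were thus highest in the list B libraries, on counts of at most 12 fragments. Grm7-204, annotated as a target of nonsense-mediated decay, had 2, 5 and 11 fragments against 4, 2 and 1. Of the 45261 single transcripts, 0 passed an adjusted p of 0.05 in limma (Benjamini-Hochberg) and 3612 had an unadjusted p of at most 0.05. This fit of single transcripts was chosen after the values were seen.

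**Figure D2:**
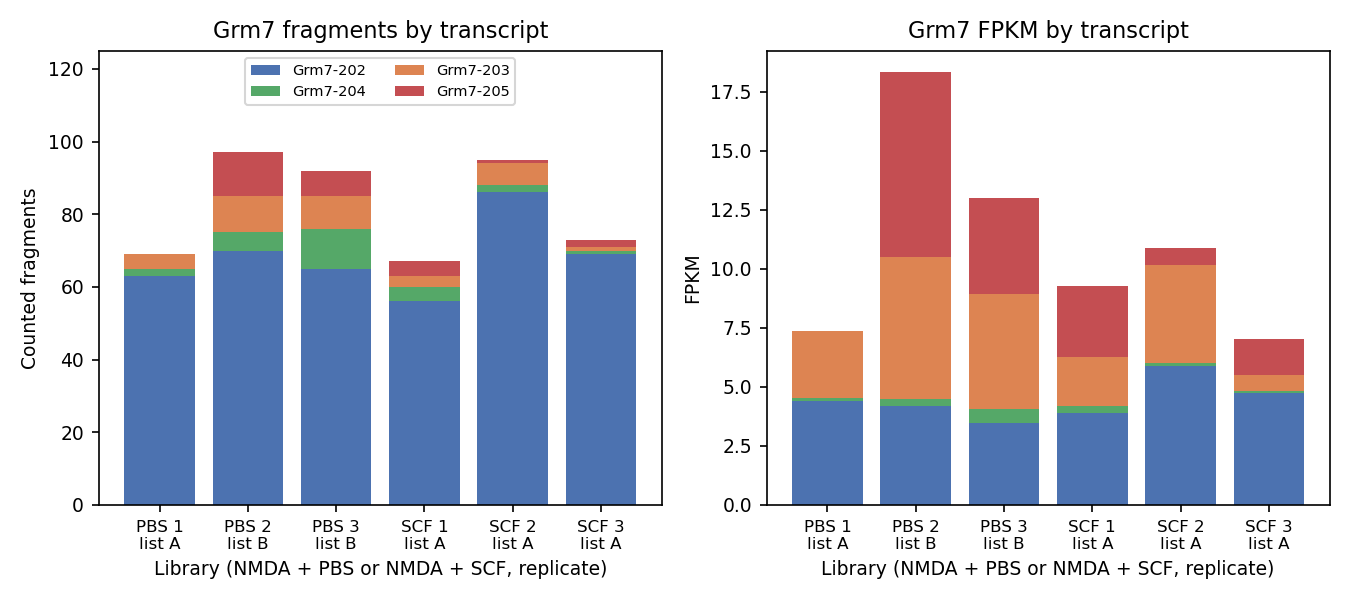
Counted fragments (left) and FPKM (right) of Grm7 in each of the 3 NMDA + PBS and 3 NMDA + SCF libraries (x axis, with transcript list), stacked by transcript. Grm7-202 holds 56 to 86 fragments in every library, while the FPKM of NMDA + PBS replicates 2 and 3 (18.3 and 13.0) is raised by Grm7-203 and Grm7-205, which hold 4 to 10 and 0 to 12 fragments in NMDA + PBS.

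The Grm7 transcripts part at the end of a shared coding exon that closes at chr6:111495899 on the plus strand (GRCm38, GENCODE M21). Grm7-202 goes on at 111566018, Grm7-205 at 111501510 and Grm7-203 at 111499701, while Grm7-204 reads on into the intron to 111497090. The junctions are shown because the transcripts have bases of the shared exon in common and differ in the bases after it. In each sequence, 24 bases of the shared exon stand in lower case and the first 33 coding bases of the next exon in capitals, 5′ to 3′.
Grm7-202: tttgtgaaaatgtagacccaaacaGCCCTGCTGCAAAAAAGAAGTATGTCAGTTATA
Grm7-205: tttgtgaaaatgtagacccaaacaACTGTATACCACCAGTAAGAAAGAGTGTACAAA
Grm7-203: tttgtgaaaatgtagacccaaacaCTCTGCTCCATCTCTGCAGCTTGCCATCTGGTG
The sequences differ from the first base after the junction, so the 3 coding transcripts have different 3′ coding ends. Grm7-201, which has the same junction as Grm7-205 and is full-length, is in list B only and was listed at 0 there. Gm20387, on the opposite strand, overlaps exons of Grm7 and was at 0.824, 1.27 and 2.15 FPKM in NMDA + PBS and at 0.655, 1.29 and 0.811 FPKM in NMDA + SCF. Gm28111 overlaps Grm2 in the same way and was at 0 in 4 libraries, 0.162 FPKM in NMDA + PBS replicate 3 and 0.206 FPKM in NMDA + SCF replicate 2. Whether the counting used strand is not given in the sources used here, so reads of these pairs cannot be told apart.

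For mGluR6 itself only its partners can be described. Of 14 genes of the mGluR6 cascade and its synaptic partners, 10 had a value, 0 passed an adjusted p of 0.05 (limma, Benjamini-Hochberg) and at an unadjusted p of 0.05 there was 1 higher and 0 lower, against 4.33% and 4.9% of all genes. Their median log2 fold change was 0.11, or 0.083 for the 9 genes over the floor of 3 fragments, beside -0.0058 over all genes. It was 0.21 within list A (all genes 0.059), 0.033 without NMDA + SCF replicate 1, 0.034 with median-of-ratios scaling (all genes -0.036) and -0.013 with upper quartile scaling (all genes -0.053). Trpm1, the channel at the end of the cascade, was at 12.2, 16.4 and 23.2 FPKM in NMDA + PBS and at 13.3, 9.95 and 15.0 FPKM in NMDA + SCF. These values overlapped, with a log2 fold change of -0.38 in limma and 0.041 within list A. The paper's enrichment analysis lists Trpm1 as up after SCF, the opposite direction to the limma value. Rgs9bp, an anchor of RGS proteins, was the most abundant gene of the list, at 877, 648 and 901 FPKM against 931, 883 and 740 FPKM. The gene with the highest log2 fold change was Lrit1, a leucine-rich repeat protein of photoreceptor synapses, at 454, 21.8 and 8.90 FPKM against 525, 477 and 471 FPKM. NMDA + PBS replicate 1 was close to the NMDA + SCF libraries and the list B libraries were low, and the log2 fold change of 3.39 became 0.11 within list A.

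ON bipolar cells, which carry mGluR6, were followed by 12 markers, of which 9 had a value. Their summed level was 291, 279 and 315 FPKM in NMDA + PBS and 317, 319 and 336 FPKM in NMDA + SCF, sums that did not overlap. Most of each sum came from Prkca and Cabp5, and 4 of the 9 genes had a positive and 5 a negative log2 fold change. The median log2 fold change was -0.015, and 0.15 within list A. For the 8 genes over the floor of 3 fragments these medians were -0.062 and 0.13. Prkca was the most abundant, at 134, 116 and 157 FPKM against 142, 150 and 154 FPKM. Cabp5, which OFF cone bipolar cells also express, was at 134, 121 and 109 FPKM against 140, 141 and 150 FPKM. The groups overlapped for Prkca and did not for Cabp5, which was higher in NMDA + SCF, by 0.24 on the log2 scale and by 0.10 within list A. Gpr179, which holds the cascade at the dendritic tip, was at 0.479, 1.85 and 1.47 FPKM against 1.90, 0.469 and 0.943 FPKM. Lrit3, a synaptic leucine-rich repeat protein, was at 4.18, 5.53 and 5.54 FPKM against 5.29, 4.46 and 5.24 FPKM. Neither of these separated the groups. Pcp2 was at 0 in 4 libraries and at 0.581 and 1.17 FPKM in NMDA + SCF replicates 2 and 3, from 1 and 2 fragments, and no fold change is given for it. Of the others, Strip2 had the lowest log2 fold change, -0.53 (-0.16 within list A), and Otx2 the highest, 0.25 (1.61 within list A). Otx2 had 5, 38 and 38 fragments in NMDA + PBS against 26, 24 and 17 in NMDA + SCF. Its value within list A thus rests on a control library with 5 fragments. All 9 genes missed an adjusted p of 0.05 (limma, Benjamini-Hochberg).

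Group II and III receptors signal through Gi/o, and all 14 genes listed for this arm had a value. At an unadjusted p of 0.05, 3 were lower in NMDA + SCF and 0 higher, against 4.9% and 4.33% of all genes, and none passed the adjusted threshold (limma, Benjamini-Hochberg). The 3 were Gnai3, Gnb1 and Adcy2, the last named after its values were seen. In all 3, both list B libraries were above all list A libraries, as in 14.4% of all genes. Adcy2 had a log2 fold change of -2.19, and of -0.15 within list A. The median log2 fold change was -0.0033, set by 2 genes that did not exceed 3 fragments in any library, and 0.0056 for the other 12 genes. Within list A the median of all 14 was 0.039, and with a library left out it ranged from -0.041 to 0.0055, turning without NMDA + PBS replicate 2 or NMDA + SCF replicate 1. It was 0.12 with the filter at a mean of 1 FPKM, where the median of all genes was 0.071. The lowest was Gnai3, an inhibitory G protein α subunit, at 2.43, 61.0 and 64.8 FPKM in NMDA + PBS and 3.94, 2.64 and 2.93 FPKM in NMDA + SCF. Only the list B libraries were high, and the log2 fold change of -2.54 became 0.27 within list A. Gnb1, a β subunit and the most abundant gene of this arm, was at 76.2, 89.6 and 128 FPKM against 71.3, 58.8 and 64.2 FPKM. Its groups did not overlap (log2 fold change -0.56, adjusted p = 0.536, limma with Benjamini-Hochberg adjustment), and the change within list A was -0.24. Gnb2, another β subunit, had the highest log2 fold change, 1.12 (0.96 within list A), with overlapping values of 6.55, 14.5 and 1.67 FPKM against 14.1, 9.34 and 19.3 FPKM.

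For the Gq arm of group I, 11 of 12 genes had a value and their median log2 fold change was 0.12. It was 0.12 within list A, 0.075 without NMDA + PBS replicate 2, 0.066 with median-of-ratios scaling, 0.035 with upper quartile scaling, 0.19 with the filter at a mean of 1 FPKM, 0.20 with a pseudocount of 0.1 and 0.30 by voom. At an unadjusted p of 0.05, 1 gene was higher and 0 lower, against 4.33% and 4.9% of all genes, and none passed the adjusted threshold (limma, Benjamini-Hochberg). The gene counted was Gna11, an α subunit named after its values were seen, at 88.4, 80.1 and 55.8 FPKM in NMDA + PBS and 113, 99.0 and 106 FPKM in NMDA + SCF, with a log2 fold change of 0.52 and 0.26 within list A. Gnaq, the α subunit that gives the arm its name, had the highest log2 fold change, at 12.9, 2.38 and 0.729 FPKM in NMDA + PBS and 11.8, 12.2 and 11.0 FPKM in NMDA + SCF. Its groups overlapped, as NMDA + PBS replicate 1 lay with the NMDA + SCF libraries, and the change of 1.54 became -0.14 within list A. Plcb4, a phospholipase C, had the lowest, -0.35, at 7.80, 18.9 and 18.7 FPKM against 17.7, 7.86 and 9.12 FPKM, and turned to 0.43 within list A. Prkca, the protein kinase C that is also an ON bipolar marker, was the most abundant of the arm.

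Of the 4 lists of partners, scaffolds and binding proteins of the receptors had the lowest median log2 fold change, -0.28. That value belongs to a gene with at most 2 fragments per library, and for the 9 genes over the floor of 3 fragments the median was -0.11. Over the whole list, leaving out NMDA + SCF replicate 1 gave -0.12, and leaving out replicate 2 of that group -0.17. In the other direction, the median was -0.42 without NMDA + PBS replicate 1 and -0.56 by voom. Of 14 genes, 11 had a value, 3 were lower and 0 higher at an unadjusted p of 0.05, against 4.9% and 4.33% of all genes, and none passed the adjusted threshold (limma, Benjamini-Hochberg). Within list A the median was -0.052, and in 6 of the 11 genes both list B libraries were above all list A libraries, as in 14.4% of all genes. Elfn2, a transsynaptic partner of group III receptors, was at 0.0390, 27.0 and 18.8 FPKM in NMDA + PBS and at 0.749, 0 and 0.0767 FPKM in NMDA + SCF. Its log2 fold change of -2.75, the lowest of the list, became 0.25 within list A. Pick1, which binds the C terminus of mGluR7, had the highest, 0.25 (0.54 within list A), at 4.25, 8.73 and 4.19 FPKM against 6.62, 6.15 and 7.20 FPKM. Siah1a, a ubiquitin ligase that binds group I receptors, was the most abundant, at 107, 76.3 and 89.6 FPKM against 96.1, 104 and 95.4 FPKM.

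Homer1, which ties mGluR5 to the postsynaptic density, falls outside the rule for named genes and was chosen after its values were seen. It was at 17.4, 27.0 and 27.3 FPKM in NMDA + PBS and at 13.1, 15.2 and 14.6 FPKM in NMDA + SCF, so that its groups did not overlap. The log2 fold change was -0.68 with an SE of 0.22 and an adjusted p of 0.536 (limma, Benjamini-Hochberg), and within list A it was -0.27.

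**Figure D3:**
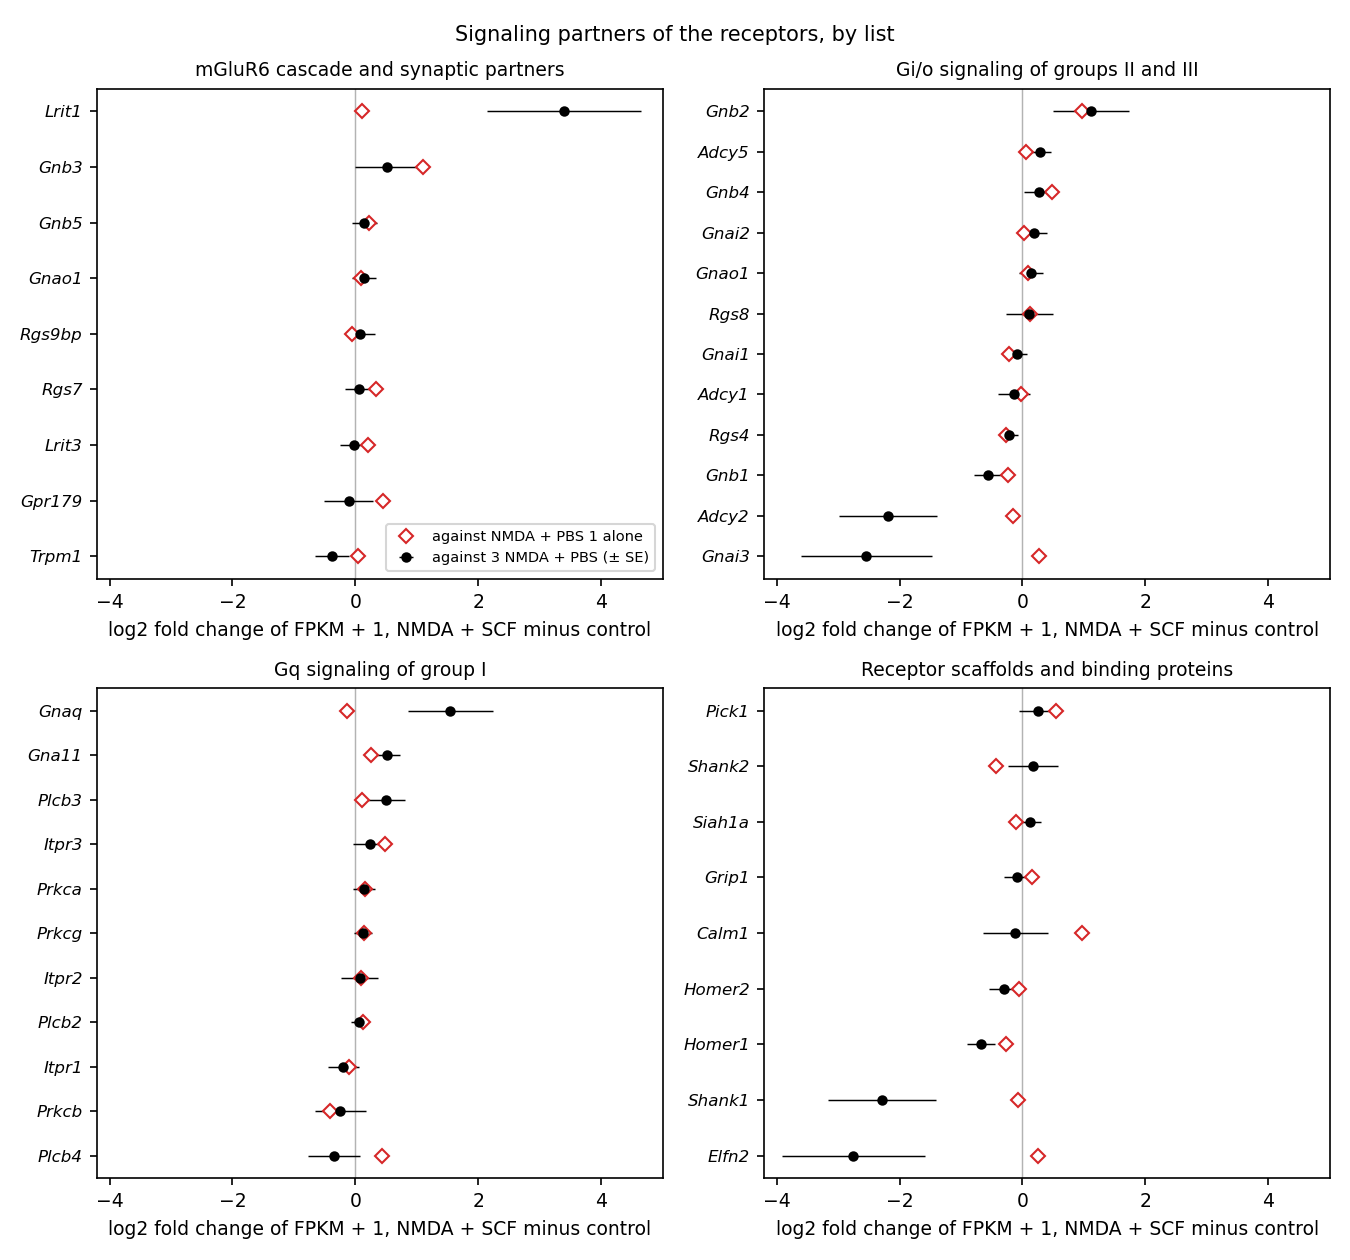
Log2 fold change of FPKM + 1 (x axis) for each gene over the floor of 3 fragments in 4 lists of receptor partners, for the NMDA + SCF libraries against 3 NMDA + PBS libraries (black, ± SE) and against NMDA + PBS replicate 1 alone, which shares transcript list A (red diamonds). The genes farthest from 0, such as Lrit1 (3.39), Elfn2 (-2.75) and Gnai3 (-2.54), lie at 0.11, 0.25 and 0.27 within list A.

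Markers of the other cell classes of the eye were followed in the same way. Photoreceptor markers (11 of 12 with a value) summed to 8442, 6112 and 5745 FPKM in NMDA + PBS and 8090, 7029 and 7500 FPKM in NMDA + SCF, with Rom1 the most abundant, a median log2 fold change of 0.19, and 2 genes higher and 1 lower at an unadjusted p of 0.05, where 4.33% of all genes were higher and 4.9% lower. Amacrine markers (10 of 10) summed to 324, 260 and 247 FPKM against 345, 289 and 318 FPKM, with a median log2 fold change of 0.0046 and 1 gene higher. Ganglion cell markers (8 of 9) summed to 464, 241 and 227 FPKM against 311, 261 and 319 FPKM, with a median of -0.13 and 1 gene lower. That gene was Slc17a6, at 0.142, 5.90 and 8.74 FPKM against 0.071, 0 and 0.353 FPKM. Only the list B libraries were high, and its log2 fold change of -1.91 became -0.013 within list A. In none of these 3 lists did the sums of the groups separate. The remaining neuronal lists were OFF cone bipolar (6 of 6 markers, median 0.21) and horizontal cells (4 of 5, median -0.41, 1 gene lower). Among the other cell classes, the medians were 0.37 for Müller glia (6 of 7 markers), 0.31 for astrocytes (4 of 4, 1 gene lower), 0.57 for microglia (2 of 5, of which only C1qa, at 1.20, was over the floor of 3 fragments) and 0.22 for pigment epithelium (4 of 4). The medians of the lens and cornea lists were 4.09, with 4 genes higher, and -1.33, with 1 gene lower. Within list A the medians of 4 of these lists turned, to -0.19 for photoreceptors, -0.042 for amacrine cells, -0.018 for astrocytes and -0.087 for pigment epithelium. Others changed in size, to -0.43 for ganglion cells, -0.59 for cornea and 0.10 for OFF cone bipolar cells. Without genes under the floor the amacrine median was 0.098 and the horizontal cell median -0.27. No gene of the 12 marker lists, ON bipolar included, passed an adjusted p of 0.05 (limma, Benjamini-Hochberg).

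Astrocyte markers, set beside Grm3 because astrocytes of the brain express it, summed to 96.7, 281 and 43.7 FPKM in NMDA + PBS and 117, 222 and 192 FPKM in NMDA + SCF. Gfap was the most abundant, at 46.5, 261 and 32.3 FPKM against 86.3, 182 and 160 FPKM, and Pax2 was at 0 in NMDA + PBS replicate 1. These sums did not separate the groups. Aldh1l1, the lowest of the list in log2 fold change (-0.37), was at 0.281, 0.653 and 0.162 FPKM against 0, 0.0688 and 0.0693 FPKM, lower in NMDA + SCF without overlap but on only 4, 3 and 3 against 0, 1 and 1 fragments. The other 3 markers overlapped, with log2 fold changes from 0.028 to 0.88. The part of astrocytes in the Grm3 values was not tested.

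For the receptors with a mean of at least 1 FPKM, the genes with the most similar pattern over the 6 libraries were sought among 14013 genes, by the root mean square difference of deviations from each gene's own mean of log2(FPKM + 1). Nearest to Grm2 were Phactr3 (0.070), Ano3 (0.077) and Spata33 (0.080), to Grm4 Zc3h10 (0.080), Gm48237 (0.093) and Cnot6l (0.14), and to Grm7 Slc6a17 (0.11), Vps13a (0.11) and Tnrc18 (0.11). Zc3h10, for example, was at 6.38, 22.3 and 18.7 FPKM in NMDA + PBS and 8.51, 6.56 and 8.34 FPKM in NMDA + SCF, with the list B libraries above the others as for Grm4. Slc6a17 was at 1.44, 5.77 and 3.38 FPKM against 2.29, 3.34 and 1.59 FPKM, with NMDA + PBS replicate 2 highest and NMDA + SCF replicate 2 the highest of its group, as for Grm7.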

How the data were processed

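RNA of 6 retinal libraries was sequenced on an Illumina HiSeq after enrichment of mRNA with oligo (dT) beads. The authors deposited FPKM values per transcript for each library, and replicates were not pooled. They also deposited a table of sequencing totals, with the number of clean reads and the percent of reads kept (97.1 to 97.6%) and of bases of quality 30 or more (92.9 to 94.3%). The aligner, counter and annotation are not given in the sources used here. The submitters' processing notes name the build mm9, but 98.2% of the 63345 Ensembl transcripts found in GENCODE M21 had its GRCm38 positions, so coordinates, lengths and transcript sequences were taken from that annotation. Unnamed merged transcripts, 8.85 to 11.4% of the FPKM, were left out.

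Gene values were sums of FPKM over those Ensembl transcripts that every table lists. Genes at 0 in every library were left out, and log2(FPKM + 1) was fitted with limma 3.58.1 (R 4.3.3, variance trend, condition only), with Benjamini-Hochberg adjustment over all genes. Changes on this scale understate those of low genes. FPKM times length gave whole fragments, within 0.05, for 98.4 to 98.5% of values above 0. These fragments gave depth, exact Poisson intervals (counting error only) and a floor of 3 fragments per library. No fold change was given for a gene at or under it in all libraries (Grm5 and Pcp2), and list medians are given with and without such genes. For each receptor the group means of FPKM were compared with a two-sided exact permutation test over libraries. The limma code was tested on simulated counts with known changes and no list split. At an adjusted p up to 0.05 (limma, Benjamini-Hochberg) it called 8 of 50 genes changed 2-fold and 40 of 50 changed 4-fold. It also called 6 of 20533 unchanged genes. Changes of 2-fold can thus be missed with 3 against 3 libraries.

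Members and lists (4 of receptor partners, 12 of cell type and tissue markers) were chosen with earlier results of these data known. The fit of single transcripts, the test of the transcript list term, the medians without genes under the floor, the count of genes ordered by transcript list, the pooled fragment ratios and the showing of Grm7 junctions were chosen after the values were seen. Named genes are all members, list genes past an adjusted p of 0.05, the lowest, highest and most abundant genes of each list, most ON bipolar markers, and the 3 most similar genes per receptor with a mean of at least 1 FPKM. The alternatives were a pseudocount of 0.1, a filter at a mean of 1 FPKM, upper quartile and median-of-ratios scaling, a replicate block, each library left out, all listed transcripts, the transcript list as a term, voom on fragments, and single transcripts. Tables and plots used Python 3.11.15, pandas 2.3.3, scipy 1.17.1 and matplotlib 3.10.9.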

Additional observations from a re-analysis of the deposited data

Results flagged for a closer look

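Grm5-202, the long coding transcript of Grm5, stands outside the comparison of the groups because only list B holds it. It was at 6.50 FPKM (208 fragments, exact 95% Poisson interval 5.65 to 7.45 FPKM) in NMDA + PBS replicate 2 and at 9.85 FPKM (352 fragments, 8.85 to 10.9 FPKM) in NMDA + PBS replicate 3, far above the floor of 3 fragments. In the same 2 libraries the Grm5 transcripts shared by both lists held 1 fragment each. No NMDA + SCF library was quantified on this transcript, so these values are a description of 2 control libraries.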

How the results depend on the processing

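Across the alternatives, 240 values stayed within tolerance, 27 moved and 6 reversed. The tolerance was the same direction and side of the threshold for receptor changes, 1.5 times for gene counts over the whole fit, no change for counts in lists, and 1 SD between libraries for levels and list medians, so that a median near 0 may turn within it. No receptor passed an adjusted p of 0.05 in any alternative (limma, Benjamini-Hochberg). Log2 fold changes ranged from -1.45 to -0.47 for Grm3 (adjusted p 0.383 to 0.898) and from -1.25 to -0.17 for Grm8 (0.480 to 0.858). Grm2 (-0.24 to 0.086) reversed without NMDA + PBS replicate 3 (0.033) or NMDA + SCF replicate 1 (0.086). Grm4 and Grm7 reversed with the transcript list as a term (0.24 and 0.25, adjusted p 0.957 for both), a planned fit on 1 control library. Its test, added after the data were seen, gave 53 genes at an adjusted p of 0.05 and 1682 at an unadjusted p of 0.05. Grm7 also reversed by voom on fragments (0.046) and, in a fit added after the data were seen, for Grm7-202 alone (0.21). With all listed transcripts the mean FPKM of Grm5 over 6 libraries went from 0.347 to 3.10, through Grm5-202 in list B. Leaving out 1 library gave 0 to 191 genes at the study's thresholds and 0 to 909 at an adjusted p of 0.05, the highest without NMDA + PBS replicate 1, where list and group coincide, and 1 without NMDA + SCF replicate 2 (Foxe3). At an unadjusted p of 0.05 these fits gave 1150 to 4332 genes. Voom called 2 genes at an adjusted p of 0.05 (mt-Nd1 and mt-Co1, named after their values were seen). Without NMDA + PBS replicate 1, where 909 of the 25202 genes passed an adjusted p of 0.05 (limma, Benjamini-Hochberg), some list genes passed too. They were 1 of 10 for the mGluR6 cascade (Lrit1) and 2 of 14 for Gi/o (Gnai3 and Adcy2). For Gq there was 1 of 11 (Gnaq), and for scaffolds 3 of 11 (Homer1, Shank1 and Elfn2). All were named after these values were seen. In each other fit with a library left out, 0 genes of these lists passed. The median log2 fold change of the mGluR6 cascade became -0.013 with upper quartile scaling, that of Gi/o became 0.12 with the filter, and that of scaffolds became -0.052 with the list as a term and -0.56 by voom. For Gq it became 0.19 with the filter, 0.066 with median-of-ratios scaling, 0.035 with upper quartile scaling, 0.20 with a pseudocount of 0.1 and 0.30 by voom, and ranged from 0.075 to 0.18 with a library left out. The cause was not tested for these medians. Grm3 and Grm8 fall under the filter at a mean of 1 FPKM and have no value there.

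For libraries with the same replicate number, deviations from the group means correlated at -0.050, -0.046 and -0.077 across 14013 genes. Genes are not independent replicates. In NMDA + PBS these deviations hold the split between the transcript lists, which NMDA + SCF lacks. The correlations therefore cannot decide whether the replicate numbers pair the libraries. With the replicate block, 1856 genes had an unadjusted p of at most 0.05 in place of 2324, and 0 passed an adjusted p of 0.05. Grm3 had an adjusted p of 0.664 with it (limma, Benjamini-Hochberg). Its log2 fold change of -0.64 cannot move under a block in this balanced design. The block changed no call, and no library correlated best with its own number.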
